A study of Mus musculus with 2 samples.

Results

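The genes described here are 6 mouse microRNA genes whose hairpin precursors are known to be made without the nuclear enzyme Drosha. They are Mir320 and Mir484, known as transcription-start hairpins, and Mir877, Mir1224, Mir1981 and Mir702, known as mirtrons. They were chosen by name from the 1973 microRNA genes of the deposited count tables, and all 6 had an entry. Total RNA from livers of 2 newborn B6NCrl mice, taken at postnatal day 0, was sequenced as small RNA after a size selection that kept inserts shorter than 30 bases. Replicate 1 is the liver of pup 1 and replicate 2 that of pup 2, both from the same pregnant female. Sex was not recorded, and no treatment, mutation, other tissue or other age stands beside these livers. The table holds 1 count per hairpin, so the arms of a hairpin were not told apart, and no library lacked Drosha, so the label itself was not tested here.

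Most microRNAs are cut stepwise from a long primary transcript, by Drosha with its partner DGCR8 in the nucleus and by Dicer in the cytoplasm. A transcription-start hairpin skips Drosha because RNA polymerase II starts at the first base of the precursor, which carries a cap and is then cut by Dicer. A mirtron is a short intron: splicing and debranching of the lariat release an RNA whose ends are the splice sites, and it folds into a hairpin that Dicer can cut. In the mouse heart, miR-320 is known as a repressor of the small heat shock protein Hspb6, and miR-484 is known to repress Fis1, a receptor for mitochondrial fission.

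RefSeq sequences on GRCm38.p6, the same assembly as mm10, matched 5 of the 6 genes by symbol. The mirtron hairpins are shown because their ends carry the splice sites. Capitals mark the first and last pair of bases of the intron where they fall inside the hairpin, which for Mir702 is the first pair only.
Mir877 hairpin: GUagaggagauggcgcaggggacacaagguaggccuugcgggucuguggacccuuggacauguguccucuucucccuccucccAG
Mir1224 hairpin: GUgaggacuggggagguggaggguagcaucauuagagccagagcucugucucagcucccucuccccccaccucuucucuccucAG
Mir1981 hairpin: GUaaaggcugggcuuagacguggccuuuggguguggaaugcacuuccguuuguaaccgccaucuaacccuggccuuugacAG
Mir702 hairpin: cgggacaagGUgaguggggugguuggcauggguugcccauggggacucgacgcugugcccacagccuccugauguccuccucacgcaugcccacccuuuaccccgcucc

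The mature RNAs of the same 5 genes are shown with the seed, bases 2 to 8, in capitals, since the seed decides which messages a microRNA pairs with. The 4 arms named 5p begin with the G of the splice donor, so the donor's U is the first base of each of their seeds.
miR-484: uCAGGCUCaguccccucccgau
miR-877-5p: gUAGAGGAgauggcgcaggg
miR-877-3p: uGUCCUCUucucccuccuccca
miR-1224-5p: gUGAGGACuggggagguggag
miR-1224-3p: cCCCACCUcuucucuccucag
miR-1981-5p: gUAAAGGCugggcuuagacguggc
miR-1981-3p: cAUCUAACccuggccuuugac
miR-702-5p: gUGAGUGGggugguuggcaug
miR-702-3p: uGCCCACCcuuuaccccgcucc

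Levels were given as counts per 1000000 gene-strand microRNA counts of the library (CPM). Replicate 1 had 3422622 such counts and replicate 2 had 4538427. Each read was taken to stand for a whole mature RNA, so levels were not divided by length. The counts give no read lengths or ends, so fragments of a precursor or intron cannot be told from mature RNAs. They were not corrected for unequal ligation or capture, so levels of different genes compare reads and not molecules. All 95% intervals describe the error of counting alone and treat reads as independent. PCR copies of a molecule are not independent reads, so the intervals can be too narrow. As a check of the tissue, the hepatocyte microRNAs Mir122 and Mir192 ranked 1 and 22 of all genes. Genes typical of other cells were read too: endothelial Mir126a at rank 2, mesenchymal Mir143 at rank 14, leukocyte Mir223 at rank 24, erythroid Mir451a at rank 40 and Mir144 at rank 66, and pancreatic Mir375 at rank 59 (2004 ± 113 CPM). Muscle Mir206 had 136 CPM in replicate 1 and 1004 CPM in replicate 2. Neural Mir124a-1 and muscle Mir1a-1 were at 0, but their mature RNAs come from several loci and such reads are on no gene, so these zeros check nothing. Neural Mir9-1 was not matched by symbol. These are whole livers, in which fewer cells of a type and less RNA per cell cannot be told apart. With 2 pups, the smallest two-sided p of an exact permutation test that flips signs is 0.5. Genes were therefore compared by the size of a gap and its spread over the pups.

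The first question was whether and at what level each hairpin was present. Both transcription-start hairpins and 3 of the 4 mirtrons were present in both livers, and Mir1224 had no read in either. A count of at least 10 in both libraries was reached by 5 of the 6 genes, against 15.8% of all genes of the table. Together the 6 genes held 0.287% of the microRNA counts in replicate 1 (exact Clopper-Pearson interval 0.282 to 0.293) and 0.263% in replicate 2 (0.258 to 0.268).

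Mir484 (ENSMUSG00000070074.1; mm10, chromosome 16, 14159626 to 14159692, plus strand) was the most abundant of them. It had 6538 counts, or 1910 CPM, in replicate 1 and 8129 counts, or 1791 CPM, in replicate 2. The mean was 1851 ± 84.2 CPM (SD, n = 2), at rank 61 of all genes in each liver. Mir122, in first place, stood 189 ± 13.4 times higher.

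Mir320 (ENSMUSG00000065528.1; chromosome 14, 70443510 to 70443591, plus strand) came next, at rank 100 by mean CPM. Its 1939 counts in replicate 1 gave 567 CPM and its 2195 counts in replicate 2 gave 484 CPM, a mean of 525 ± 58.6 CPM. The Mir484 level was 3.37 times that of Mir320 in replicate 1 and 3.70 times in replicate 2, so the pups did not overlap in the order of these genes.

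Mir1981 (ENSMUSG00000088559.1; chromosome 1, 184822407 to 184822488, minus strand), from an intron of Marc2, was the most abundant mirtron. Marc2 encodes a molybdenum enzyme of the mitochondrial outer membrane. Mir1981 had 1194 counts, or 349 CPM, in replicate 1 and 1453 counts, or 320 CPM, in replicate 2, a mean of 335 ± 20.3 CPM at rank 123. It lay nearer to Mir320 than to the other mirtrons: Mir320 was 1.57 ± 0.0801 times as high, whereas Mir1981 was 12.4 times as high as Mir877 in replicate 1 and 15.6 times in replicate 2.

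Mir877 (ENSMUSG00000077931.1; chromosome 17, 35960730 to 35960814, minus strand) lies in an intron of Abcf1, a factor of translation initiation. It had 96 counts, or 28.0 CPM, in replicate 1 and 93 counts, or 20.5 CPM, in replicate 2, a mean of 24.3 ± 5.34 CPM at rank 226. Exact Poisson intervals for these counts were 22.7 to 34.3 CPM in replicate 1 and 16.5 to 25.1 CPM in replicate 2, which overlap.

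Mir702 (ENSMUSG00000076240.1; chromosome 5, 136991433 to 136991541, plus strand), at an intron of the collagen lysyl hydroxylase gene Plod3, was the weakest gene with counts. It had 63 counts, or 18.4 CPM, in replicate 1 and 55 counts, or 12.1 CPM, in replicate 2, a mean of 15.3 ± 4.45 CPM at rank 243. Mir877 stood 1.61 ± 0.118 times above Mir702 within a library. The lower Mir877 value and the higher Mir702 value were 20.5 and 18.4 CPM, so the ranges of these genes did not overlap, although their Poisson intervals in replicate 1 did.

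Mir1224 (ENSMUSG00000080669.1; chromosome 16, 20604452 to 20604536, plus strand), from an intron of Vwa5b2, had 0 counts in both libraries. The limit that a count of 0 allows, 3 counts of the library total, was 0.877 CPM for replicate 1 and 0.661 CPM for replicate 2. Set against this limit per library, the measured level of Mir1981 was 398-fold higher in replicate 1 and 484-fold higher in replicate 2. The measured level of Mir702, the weakest of the others, was 21-fold higher in replicate 1 and 18.3-fold higher in replicate 2. These folds leave out the counting error of Mir1981 and Mir702, so they are not minima. For Mir702 the lower ends of the exact Poisson intervals were 14.1 CPM in replicate 1 and 9.13 CPM in replicate 2. Mir1224 was therefore not detectable at this depth, which bounds its level and does not show its absence.

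**Figure D1:**
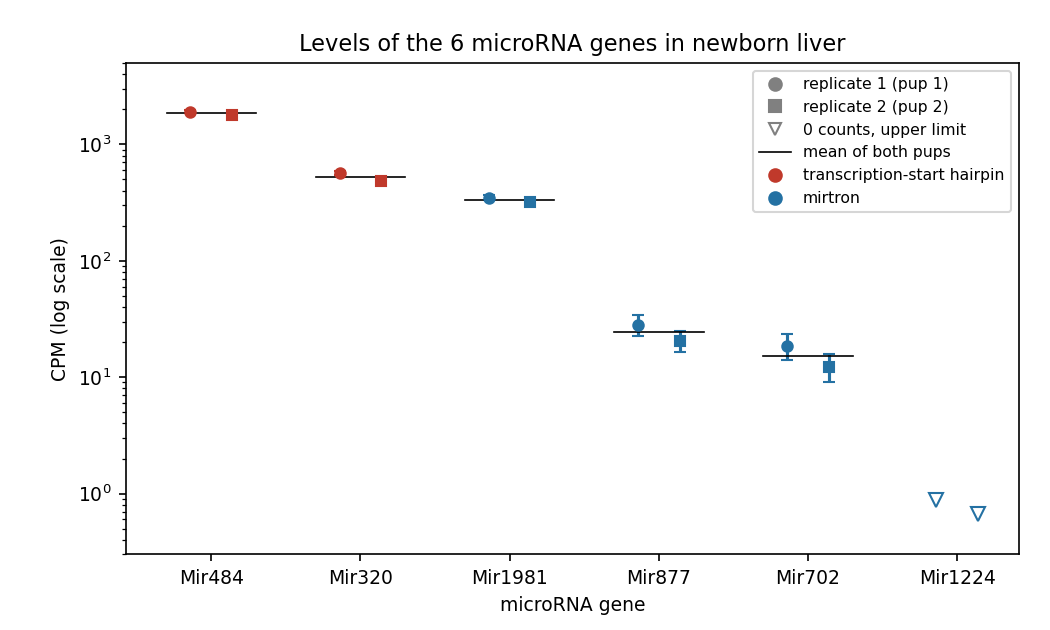
CPM on a log axis for the 6 genes in replicate 1 (circles) and replicate 2 (squares), with exact 95% Poisson intervals, the mean of both pups as a line, and open triangles at the limit of a count of 0. Mir484 and Mir320 lie at the top, Mir1981 is close under Mir320, Mir877 and Mir702 lie between 12.1 and 28.0 CPM, and Mir1224, with no read, is drawn at its limits of 0.877 and 0.661 CPM.

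The classes were then set side by side, transcription-start hairpins over mirtrons. Mir484 and Mir320 reached a sum of 2477 CPM for replicate 1 and 2275 CPM for replicate 2, a mean of 2376 ± 143 CPM. The sum of the 4 mirtrons was 395 CPM in replicate 1 and 353 CPM in replicate 2, a mean of 374 ± 30.1 CPM. The ratio was 6.27 in replicate 1 (exact interval 5.92 to 6.64) and 6.45 in replicate 2 (6.12 to 6.80), a mean of 6.36 ± 0.129. Each class had a leading gene: Mir484 made up 77.9% ± 1.14 of the transcription-start counts, and Mir1981 made up 89.5% ± 1.77 of the mirtron counts. With 2 genes in one class and 4 in the other, the ratio describes these genes and not the classes at large. Between the leading genes alone, Mir484 over Mir1981, it was 5.54 ± 0.0841.

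Genes next to each member in the order of mean CPM show how finely the order is resolved. Mir484 lay between Mir151 (1963 ± 19.6 CPM), whose range it did not overlap, and Mirlet7f-2 (1822 ± 83.7 CPM), whose range it did. Mir1981 lay between Mir496a (341 ± 33.8 CPM) and Mir188 (330 ± 4.93 CPM) and overlapped both. The genes beside Mir877 were Mir147 (24.5 ± 3.43 CPM) and Mir217 (23.5 ± 3.87 CPM), and those beside Mir702 were Mir1948 (16.5 ± 1.88 CPM) and Mir758 (15.8 CPM in replicate 1 and 13.7 CPM in replicate 2), again with overlapping ranges. Mir320 had Mir542 (515 ± 12.8 CPM) under it and Mir206 above it. The muscle gene Mir206 differs widely between the pups, as given above, so its place above Mir320 holds for replicate 2 alone.

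**Figure D2:**
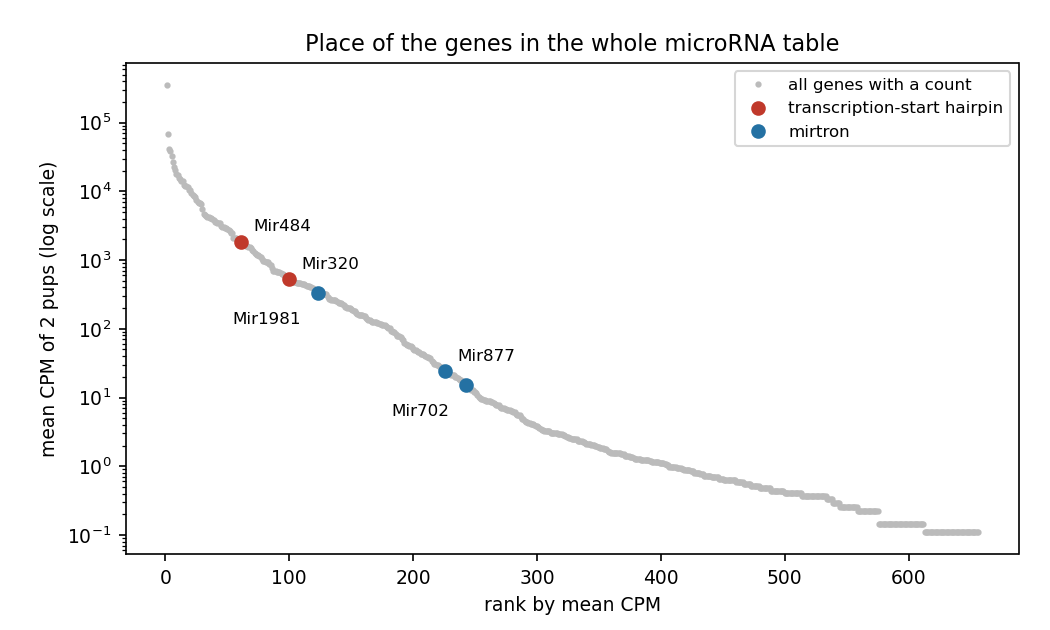
Mean CPM over 2 pups (log axis) against rank for all genes with a count (grey), with the transcription-start hairpins in red and the mirtrons in blue. Mir484 at rank 61, Mir320 at rank 100 and Mir1981 at rank 123 lie in the upper part of the curve, and Mir877 at rank 226 and Mir702 at rank 243 in its lower part.

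Positions of the hairpins were read from GENCODE M21 on the same assembly. The mirtrons Mir877, Mir1224 and Mir1981 coincide base for base with an annotated intron of their host gene, of 85, 85 and 82 bases. The Mir702 hairpin of 109 bases begins 9 bases before its Plod3 intron of 102 bases and ends 2 bases before that intron's end, so its first bases are exonic. Every 5p arm of these 4 genes starts at the first base of the intron. The 3p arms end at the last base of the intron for Mir1224, 1 base before it for Mir877 and 2 bases before it for Mir1981 and Mir702. Mir1224 fits its intron exactly and had no read, whereas Mir702 does not and was read in both livers. Whether the fit bears on the level was not tested, and expression of the host genes was not measured.

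Neither transcription-start hairpin overlaps an annotated intron on its own strand. Mir320 starts 63 bases upstream of the nearest start of Polr3d, a subunit of RNA polymerase III, which is transcribed in the opposite direction. Mir484 starts 359 bases upstream of a start of Marf1, a regulator of messenger RNA stability, from which transcription also runs in the opposite direction. For each hairpin this is the nearest start on its upstream side, the only side searched. A longer Marf1 transcript runs across Mir484 on the opposite strand, and an untranslated exon of it overlaps the 3′ end of the hairpin. On its own strand, Mir484 lies 3649 bases upstream of the nearest annotated start of Nde1, a gene of centrosome and spindle function. Such an upstream position within 500 bases of a divergent protein-coding start was held by 28 of 1894 genes with coordinates, or 1.48%. Of these 28 genes, 3 reached 10 counts in each library: Mir484, Mir320 and Mir1934 (4.84 ± 1.88 CPM). The other 25 included 15 at 0 in both libraries.

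**Figure D3:**
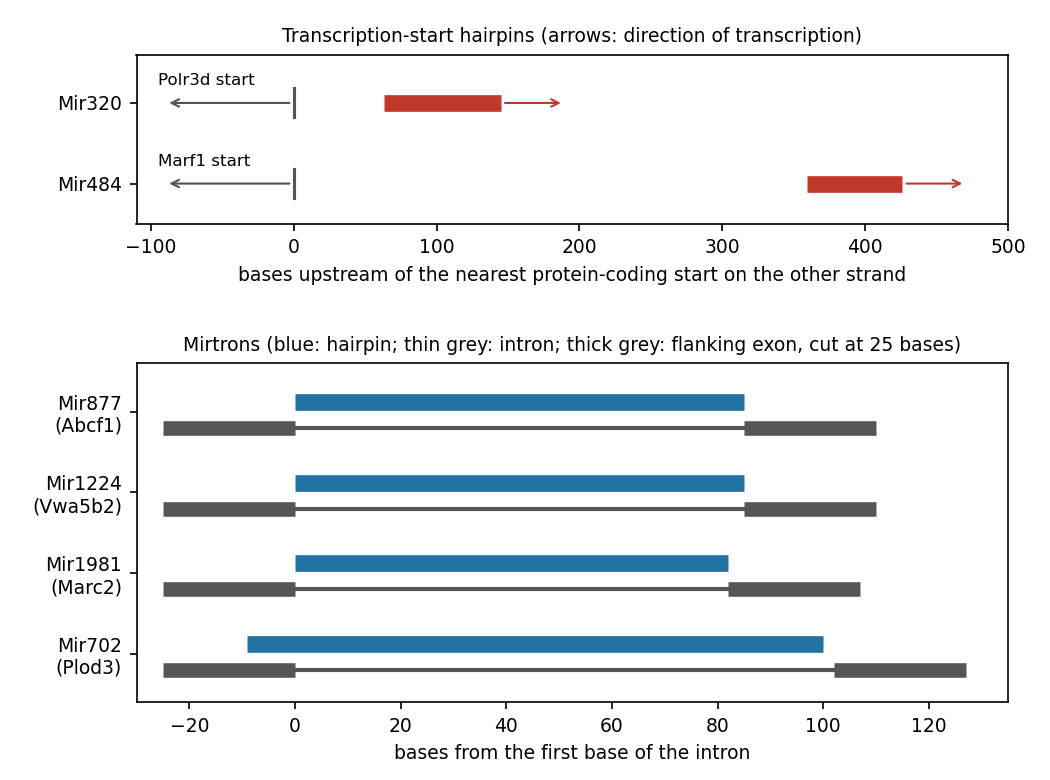
Position of each hairpin in bases, drawn to scale. The upper panel shows Mir320, 63 bases, and Mir484, 359 bases, from the nearest protein-coding start on the other strand, upstream of the hairpin. Arrows give the direction of transcription. The lower panel shows the mirtrons (blue) against their introns (thin grey). Overlap is full for Mir877, Mir1224 and Mir1981, and Mir702 has a shift of 9 bases at the left end.

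The 4 mirtrons were placed among all hairpins of the table that fit an intron in the same way. Of 1894 genes with coordinates, 29 had both hairpin ends within 10 bases of the ends of an annotated intron on their strand, and for 22 of them the fit was exact. Their introns were short, from 67 to 137 bases with a median of 85, whereas hairpins that lie inside an intron without filling it had best-fitting introns with a median of 8254 bases. The mark of 10 counts in each library was reached by 6 of the 29 (20.7%), by 153 of 809 hairpins inside larger introns (18.9%) and by 153 of 1056 hairpins elsewhere (14.5%). The order of these shares depended on the window: with both ends within 25 bases, 8 of 57 intron-filling hairpins and 151 of 786 other intronic ones (19.2%) reached the mark. The median level of the genes that reached it was 14.7 CPM for the 6 intron-filling hairpins, which spanned 4.06 to 335 CPM. It was 134 CPM for the other intronic hairpins and 209 CPM for hairpins elsewhere. These shares and medians are a description, and differences between the groups were not tested.

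Mir1981 and Mir877 were the most abundant of the 29 intron-filling hairpins in both libraries. Mir702 and Mir3102 followed, with Mir702 above by mean and in replicate 1 and Mir3102 above in replicate 2. Mir3102 lies in Arhgef17 and had 54 counts (15.8 CPM) in replicate 1 and 57 counts (12.6 CPM) in replicate 2. Mir1982 in Oaz1 was lower, with 10 counts (2.92 CPM) and 24 counts (5.29 CPM). Mir7088 in Mst1 had 18 counts (5.26 CPM) and 13 counts (2.86 CPM), in replicates 1 and 2 in that order. Besides the members, Mir3102, Mir1982 and Mir7088 were the only ones that reached 10 counts in each library. Of the other 22 that are not members, 16 had counts but fell short of that mark in at least 1 library, and 6 had none. All 29 summed to 407 ± 33.5 CPM, of which Mir1981 alone held 81.1% in replicate 1 and 83.6% in replicate 2.

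**Figure D4:**
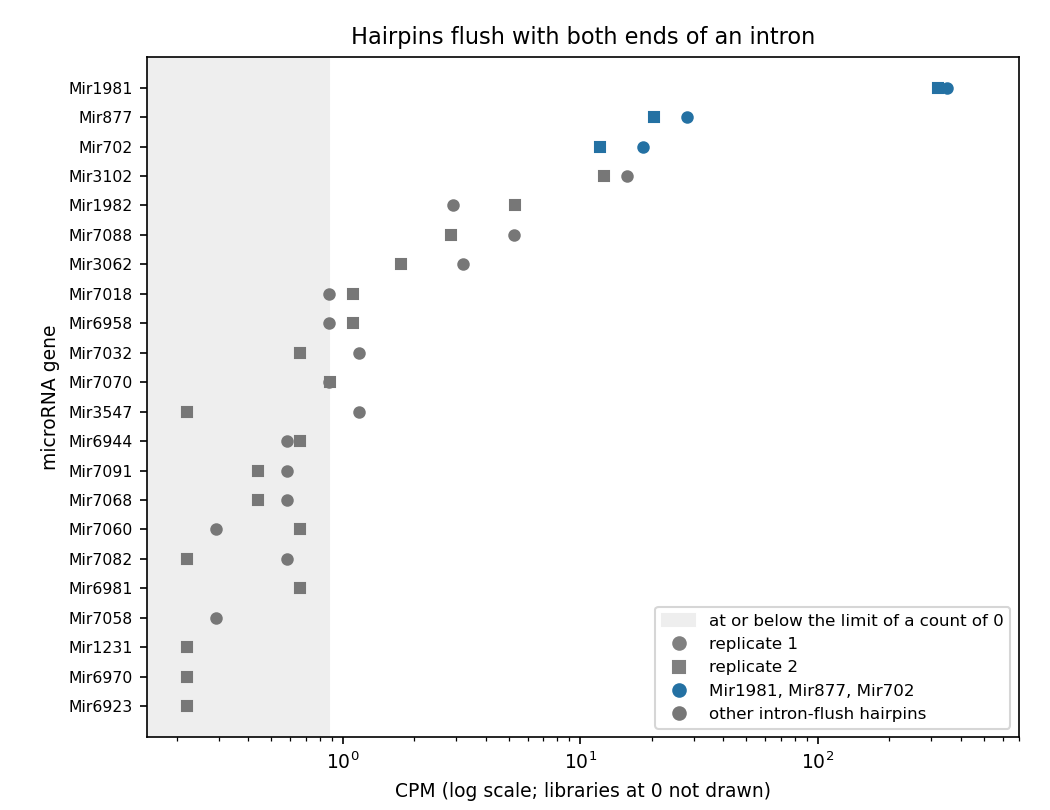
CPM on a log axis for the 22 intron-filling hairpins with a count, in replicate 1 (circles) and replicate 2 (squares), with the mirtrons Mir1981, Mir877 and Mir702 in blue and the others in grey. The grey band ends at the limit of a count of 0 in replicate 1, 0.877 CPM; Mir1981 stands alone at the top, at 349 and 320 CPM, and Mir3102 lies beside Mir702.

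Sequence features were computed from the RefSeq hairpins, which matched 869 genes of the table and 23 of the 29 intron-filling ones. A hairpin that begins with GU and ends with AG, the letters of splice donor and acceptor read on the transcribed strand, was found for 15 of these 23 (65.2%) and for 15 of the 846 others (1.77%). The intron ends were the criterion for the 23, so this follows from the choice. The hairpins of Mir877, Mir1224 and Mir1981 are among the 15. Hairpins of the 4 mirtrons held 53.7% (Mir1981), 60.0% (Mir1224), 61.2% (Mir877) and 65.1% (Mir702) G and C, and that of Mir484 held 58.2%, against a median of 52.3% over all 869. Minimum free energies from RNAfold were -42.8 kcal/mol for Mir1224, -36.5 for Mir877, -30.3 for Mir1981, -47.4 for Mir702 and -24.6 for Mir484, with a median of -33.2 over all hairpins. Mir1224, without a read, had a lower predicted energy per base, -0.504 kcal/mol, than Mir1981, the most abundant mirtron, at -0.370. Whether the energy bears on the level was not tested. None of the 5 hairpins with a sequence, those of the 4 mirtrons and Mir484, had 20 consecutive bases in common with a hairpin at another locus. Mir320 was not matched to a sequence, so it was not checked in this way. Multimapped reads were 25.2% of the sequenced reads for replicate 1 and 24.7% for replicate 2. They are assigned to no gene, and copies of these sequences outside microRNA hairpins were not looked for.

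Among the 9 mature RNAs shown above, 8 had a seed that no other mature mouse microRNA of the RefSeq table used here holds. The exception was miR-702-5p, whose seed UGAGUGG is that of miR-3102-5p (chromosome 7, 100882388 to 100882409, minus strand), another RNA that begins at the donor site of its intron. Both are printed for comparison, with the seed in capitals.
miR-702-5p: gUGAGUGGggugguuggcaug
miR-3102-5p: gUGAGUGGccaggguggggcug
The hairpins that hold them were close in level, Mir702 at 15.3 ± 4.45 CPM and Mir3102 at 14.2 ± 2.28 CPM. The ratio of Mir702 to Mir3102 was 1.17 in replicate 1 and 0.965 in replicate 2, so their order was not resolved. How much of either count came from the 5p arm is not known.

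Other genes named for unusual biogenesis were read beside the 6. Mir1983, known to come from a transfer RNA gene, had 3595 counts (1050 CPM) in replicate 1 and 6093 counts (1343 CPM) in replicate 2. It thus lay between Mir484 and Mir320. Transfer RNA genes exist in several copies, so its count is uncertain. Mir451a, which needs Drosha but is cut by Argonaute2 in place of Dicer, had 3877 CPM in replicate 1 and 3310 CPM in replicate 2. It stood 1.94 ± 0.128 times above Mir484 in these livers. Mir1839, Mir712 and Mir1186, on the same list, were not matched in the table by symbol and are not analysed here.

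The livers were then compared to see how far each gene differed between pups. All 5 genes with counts were higher in replicate 1 than in replicate 2, by log2 ratios of 0.09 to 0.60, while 49.7% of the 390 genes with a summed count of at least 10 were. The median log2 ratio was 0.23 for the 5 genes and 0.00 for all genes compared. The two-sided exact binomial test used here asks only whether 2 libraries differ by more than counting error, with Benjamini-Hochberg adjustment over all 390 genes at 0.05. It called 2 of the 5 genes, Mir320 and Mir484, both higher in replicate 1. Over all genes it called 30.3%, with 14.4% higher in replicate 1, and among genes with a summed count of at least 1000, as Mir320, Mir484 and Mir1981 have, it called 56.5%.

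For Mir320 the log2 ratio was 0.23 (exact interval 0.14 to 0.32; adjusted p = 2.81e-06), a 1.17-fold difference. For Mir484 it was 0.09 (0.05 to 0.14; adjusted p = 0.000552 by the exact binomial test), or 1.07-fold. The mirtrons did not pass the adjustment, although all 5 genes had an unadjusted p below 0.05: the log2 ratio was 0.12 (0.01 to 0.24) for Mir1981, 0.45 (0.03 to 0.88) for Mir877 and 0.60 (0.06 to 1.15) for Mir702. Their adjusted p-values by that exact test lay between 0.0787 and 0.0975. Mir877 and Mir702 had larger ratios than Mir320 and wider intervals, from under 100 counts a library. Whether the ratio differs between the classes was not tested.

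When the spread between the pups served as the noise, in edgeR's negative binomial exact test with a common coefficient of variation of 0.130, none of the 5 genes was called. None had an unadjusted p below 0.05 in that test, the lowest being 0.119, and it called 2 of all 390 genes (0.513%). Both called genes were lower in replicate 1: muscle Mir206, with a log2 ratio of -2.88, and Mir669f, with -3.91 from 3 and 60 counts. Muscle Mir133b, not called by this test, had 1 count in replicate 1 and 20 in replicate 2. Mir206, Mir669f and Mir133b moved opposite to the 5 genes between the same libraries. Besides Mir206 and Mir133b, genes known from heart or skeletal muscle went both ways. Mir208b (log2 ratio -0.72) and Mir499 (-0.31) were lower in replicate 1. Mir208a (0.91, from 17 and 12 counts) and Mir1b (0.41, from 12 and 12 counts) were higher. The part of these genes in the result was not tested. The coefficient came from the same 2 libraries, so this comparison has no replicate check and describes these livers only. Mir1983 lay on the other side, with a log2 ratio of -0.35 (-0.41 to -0.29), and was also called by the exact binomial test (adjusted p = 8.72e-31) but not by the negative binomial test.

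**Figure D5:**
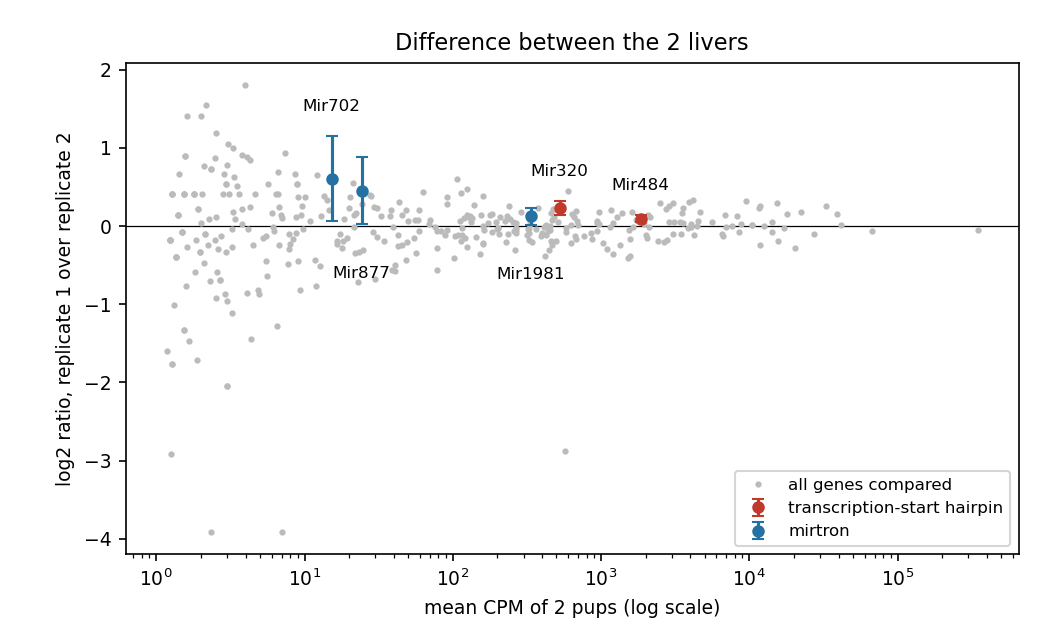
Log2 ratio of replicate 1 over replicate 2 against mean CPM (log axis) for all genes compared (grey), with exact 95% intervals for the transcription-start hairpins (red) and the mirtrons (blue). The 5 genes lie above 0, from 0.09 for Mir484 to 0.60 for Mir702, inside the spread of the grey points at the same level.

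Reads on the strand opposite to the hairpin were examined as a separate readout. None of the 6 genes had a read there in either library, so counts with and without regard to strand were equal for all 6. This includes Mir484, although a Marf1 transcript is annotated across it on that strand. At least 1 opposite-strand read was found for 62 of the 1973 genes. Library totals and other genes therefore changed when strand was disregarded. The Mir484 level was then 1766 CPM at rank 68. Mir320 was at rank 108, Mir1981 at 131, Mir877 at 237 and Mir702 at 253.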

How the data were processed

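MicroRNA-seq libraries of 2 newborn livers formed 1 group. The authors deposited raw read counts for each microRNA gene. The build is mm10 and the annotation GENCODE M4, according to the readme texts they deposited. For aligner, counter and read trimming, the sources used here give no name. Columns for counts without strand, on the gene strand and on the opposite strand have no header and were told apart from the values. The gene-strand count was used. Unassigned unique reads, 8.87% and 9.92% of uniquely mapped reads in replicates 1 and 2, stayed out of library sizes. Gene symbols, introns and starts came from GENCODE M21, which matched 1894 of 1973 identifiers; the other 79 held 0 counts.

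Library comparison used the exact binomial test (scipy 1.17.1), tried on simulated counts. That simulation held counting error alone and no spread between pups, so it does not show how the test behaves on these livers. edgeR 4.0.16 gave the negative binomial test and TMM factors, DESeq2 1.42.0 size factors and ViennaRNA 2.7.2 the folding. edgeR's quasi-likelihood test needs replicate libraries within the groups compared. With 1 library a side there are none, so it was not run. Genes, lists and rules were chosen with earlier results of these data known. Named genes were the 6, a list of genes of unusual biogenesis and the 5 highest intron-filling hairpins. The genes just above and below each member and the marker genes of cell types were named besides. Mir7088, Mir1934, Mir133b, Mir669f, Mir208a, Mir208b, Mir499 and Mir1b were chosen after their values were seen. Alternatives were other denominators, strand, filters, library sizes, each pup alone and a wider or narrower fit to introns. Those added after seeing the data were the negative binomial test of single genes and a minimum of 1000 counts.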

Additional observations from a re-analysis of the deposited data

How the results depend on the processing

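No member's log2 ratio changed sign under the alternatives run. Intron-filling hairpins that reached 10 counts in each library were 8 of 57 with both ends within 25 bases, under the 19.2% of other intronic hairpins, but 20.7% against 18.9% within 10 bases and 22.7% against 18.8% within 3 bases. Mir702 was above Mir3102 by mean and not in replicate 2 alone. Of the genes called between the libraries, 60 of 119 were higher in replicate 1 with DESeq2 size factors and 46 of 118 with totals without Mir122, against 56 of 118 with library totals. Levels depended on the denominator, and ranks of the genes with counts depended on the use of strand. Per 1000000 uniquely mapped reads, the transcription-start sum was 2153 CPM, the mirtron sum 339 CPM and the share of the 6 genes 0.249%. With library totals without Mir122 these were 3646 CPM, 574 CPM and 0.422%. From each pup alone, the transcription-start sum ran from 2275 to 2477 CPM, the mirtron sum from 353 to 395 CPM, the ratio from 6.27 to 6.45 and the share from 0.263% to 0.287%. Between the highest genes of each class the ratio was 5.54. At a minimum of 100 counts, 3 of the 6 genes were present, Mir484, Mir320 and Mir1981. With at least 1 count in both libraries, 17 intron-filling hairpins were present. The number of genes that differ between the libraries was 2 with the negative binomial test, against 118 with the exact binomial test. With the negative binomial test Mir320 and Mir484 lost their calls (both at an adjusted p of 1). That test takes the spread between these same 2 libraries as its noise, so the loss of calls follows in part from how it was set up. With TMM, DESeq2 size factors, totals without Mir122 or counts without strand, no member gained or lost a call. No paired analysis was possible because the series has 1 group. Depth limits Mir877 and Mir702, with under 100 counts a library, and Mir1224.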
